A study of Mus musculus with 20 samples.

Results

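Tph2 and Ddc encode the 2 enzymes that make serotonin from tryptophan, and both were followed here by gene symbol through the RNA of sorted mouse serotonin (5-HT) neurons, as 2 of the 22556 genes in the table of developmental stages. Both passed the filter on low values, at least 1 FPKM (sequenced fragments relative to transcript length and library size) in at least 3 libraries, with 11741 genes in all. Across 3 developmental stages Tph2 and Ddc were lower at E15.5 than at E11.5 (E for embryonic day), and neither passed the test of postnatal neurons against E15.5. At E15.5 both were lower in Pet-1 knockout than in wild-type neurons with either of 2 library kits.

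Tryptophan hydroxylase 2 (Tph2) is the form of the enzyme used by brain serotonin neurons. It adds a hydroxyl group to tryptophan and sets the pace of serotonin synthesis, with tetrahydrobiopterin as its cofactor. Aromatic L-amino acid decarboxylase (Ddc) then removes the carboxyl group with the help of pyridoxal phosphate. Ddc works in dopamine and noradrenaline neurons too, so it marks monoamine synthesis in general, whereas Tph2 marks serotonin neurons. Pet-1, the product of Fev, is a transcription factor of the ETS family that in the brain is largely restricted to serotonin neurons, and mice without it are known to have lost much of their brain serotonin.

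The knockout neurons were Pet-1-/- and from E15.5, and wild-type neurons came from E11.5, E15.5 and postnatal days 1 to 3 (PN). All were C57BL/6 mice, and neurons carrying the yellow fluorescent protein EYFP were isolated by flow cytometry, with the transgene that drives EYFP not named for the RNA samples. A Clontech SMARTer kit was used for knockout and wild type at E15.5 and for wild type at E11.5 and PN, and a NuGEN Ovation kit for a further set of knockout and wild type at E15.5, with 3 libraries in each group. The last samples were 1 chromatin precipitate of Myc-tagged Pet-1 (ePet-mycPet-1) from hindbrain and its 1 input. For that pair the labels conflict on the genotype, wild type in one place and Pet-1-/- in another, and on whether E14.5 or E15.5 was the last age.

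Serotonin neuron markers other than the enzymes (Fev, Slc6a4, Slc18a2, Gata3 and Lmx1b) summed to 519 to 829 FPKM at E11.5, 206 to 284 FPKM at E15.5 and 237 to 359 FPKM at PN. Each was above 1 FPKM in every stage library, except Lmx1b at 0.686 FPKM in PN library a. Of 5 markers of catecholamine neurons, which also use Ddc, Dbh, Slc6a2 and Slc6a3 were below 1 FPKM in all 9 stage libraries. The 5 summed to 0.0272 to 0.534 FPKM at E11.5, 3.44 to 8.24 FPKM at E15.5 and 10.02 to 73.3 FPKM at PN. At PN most of that sum was Th, at 12.1, 64.7 and 3.42 FPKM, and Pnmt, at 0, 7.50 and 6.29 FPKM. Summed microglia markers were at 2.64 to 11.1 FPKM at E11.5, 7.81 to 27.5 FPKM at E15.5 and 124 to 1075 FPKM at PN. Read numbers are not in the files, so the depth behind each value is unknown. Libraries are lettered a to c within a stage, and the sources do not say that they came from separate animals, so the p-values measure only the spread between these samples, which may be technical.

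Both genes lie on the minus strand of the mouse genome (RefSeq, GRCm38.p6). Tph2 (gene ID 216343) spans 106382 bases at chr10:115078641-115185022, and Ddc (gene ID 13195) spans 84044 bases at chr11:11814101-11898144. RefSeq gives Tph2 a single start and Ddc 2 starts that are 7.74 kb apart. The stretches around these starts are shown because the RNA of both genes was lower without Pet-1, an ETS factor. Each runs 5′ to 3′ along the gene, from 250 bases before the start to 50 after it, and capitals mark the ETS core GGAA, written TTCC where it lies on the other strand.
Tph2 chr10:115184973-115185272: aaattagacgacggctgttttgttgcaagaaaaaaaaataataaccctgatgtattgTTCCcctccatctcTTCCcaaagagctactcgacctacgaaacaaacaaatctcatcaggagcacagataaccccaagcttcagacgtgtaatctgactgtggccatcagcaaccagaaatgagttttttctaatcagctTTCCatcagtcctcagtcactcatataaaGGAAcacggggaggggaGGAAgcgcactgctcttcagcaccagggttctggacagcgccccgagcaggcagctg
Ddc start 1 chr11:11898095-11898394: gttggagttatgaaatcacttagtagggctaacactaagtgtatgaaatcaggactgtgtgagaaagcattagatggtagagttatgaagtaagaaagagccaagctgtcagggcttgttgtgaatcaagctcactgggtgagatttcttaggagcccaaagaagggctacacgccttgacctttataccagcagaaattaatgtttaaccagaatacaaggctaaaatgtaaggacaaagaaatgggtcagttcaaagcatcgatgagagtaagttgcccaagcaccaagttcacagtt
Ddc start 2 chr11:11890359-11890658: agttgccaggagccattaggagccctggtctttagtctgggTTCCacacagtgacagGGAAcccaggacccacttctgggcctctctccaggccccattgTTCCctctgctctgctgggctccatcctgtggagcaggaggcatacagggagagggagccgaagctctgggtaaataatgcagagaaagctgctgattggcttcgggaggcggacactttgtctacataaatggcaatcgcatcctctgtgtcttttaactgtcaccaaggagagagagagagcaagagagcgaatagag

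The Tph2 stretch held 5 cores, of which those at -24 and -7 from the start lie on the gene's strand and those at -193, -179 and -53 on the other. The outer Ddc start had 0 cores, and the inner one had 3, at -193 on the gene's strand and at -209 and -150 on the other. Such a core is no mark of these genes, since 96.0% of 32851 RefSeq promoters of the same length held GGAA on either strand. The longer ETS site CCGGAAGT, which contains that core, was in none of the 3 stretches and in 3.89% of promoters. The GATA core GATAA stood once before Tph2, at -127, and in 25.4% of promoters. The letters TATAAA stood at -30 before Tph2, directly next to the core at -24, and at -68 on the other strand of the outer Ddc start, with 13.6% of promoters holding them. These are matches of letters only.

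The Myc-tagged Pet-1 precipitate gave 4934 peaks, called by the authors on mm10 with scores of 50 to 3133 (median 88.3). Inside the Ddc gene lay 1 of them, at chr11:11822377-11822980, 604 bases wide. Its score of 52.43 ranked 4658 in the list, close to the lowest score, and its centre was 75.5 kb downstream of the outer start and 67.7 kb downstream of the inner start. Whether it is exonic or intronic was not resolved here. No peak lay in Tph2 or within 50 kb of it. The nearest was at chr10:115384381-115385922, 199 kb before the start, with a score of 211.34, and it overlapped the spans of Thap2 and Zfc3h1. Across 21900 protein-coding genes, 21.1% had a peak within their span, 28.0% within 10 kb and 44.7% within 50 kb. The scores are the authors' own, and with 1 precipitate there is no replicate check.

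**Figure D1:**
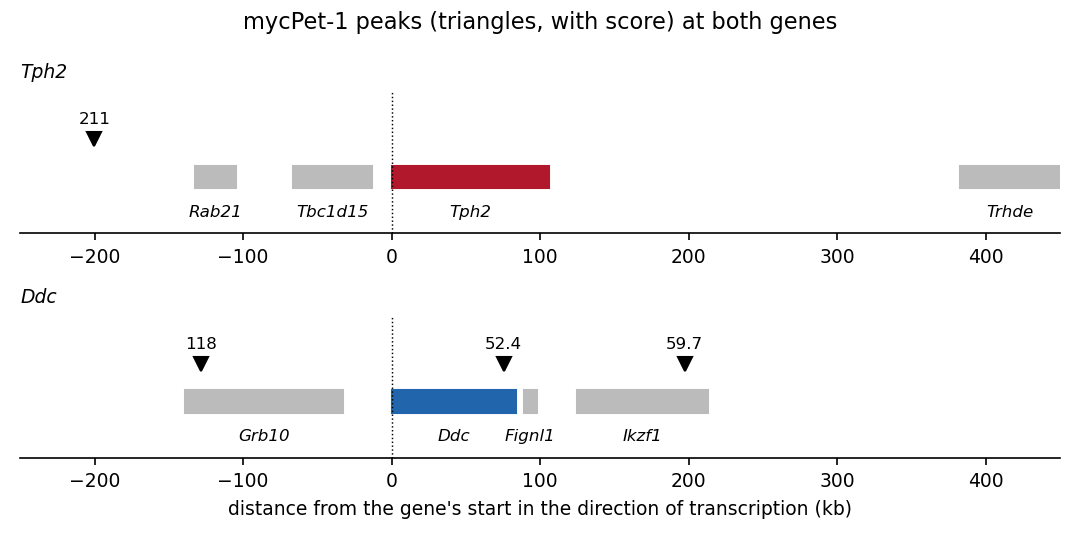
Map of both genes with mycPet-1 peaks, in kb from each gene's first start in the direction of transcription; coloured boxes are Tph2 and Ddc, grey boxes neighbouring protein-coding genes, and triangles peaks with their score. The peak in Ddc scored 52.4 and lay 75.5 kb from the start, and the nearest peak to Tph2 scored 211 and lay beyond Rab21.

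The stage libraries ask how synthesis genes change as the neurons mature. Tph2 was at 145, 114 and 305 FPKM at E11.5, at 64.9, 51.0 and 76.3 FPKM at E15.5, and at 71.6, 133 and 69.8 FPKM at PN. Every E15.5 library lay below every E11.5 library, while the PN values overlapped both earlier stages. The means were 188 ± 103 FPKM at E11.5, 64.1 ± 12.6 FPKM at E15.5 and 91.5 ± 35.9 FPKM at PN (SD, n = 3 each). The spread at E11.5 was wide, with a coefficient of variation of 54.5%, because library c held more than the others, and that library also had the highest Slc6a4 (161 FPKM) and Slc18a2 (57.4 FPKM) but the lowest Fev (180 FPKM) of its stage.

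Ddc was at 281, 269 and 348 FPKM at E11.5, at 170, 173 and 148 FPKM at E15.5, and at 202, 258 and 165 FPKM at PN. The E11.5 values stood above all later ones, and those of E15.5 and PN overlapped. The means were 299 ± 42.6 FPKM at E11.5, 164 ± 13.7 FPKM at E15.5 and 208 ± 46.7 FPKM at PN (SD, n = 3 each). Ddc varied less within a stage than Tph2, with coefficients of variation of 14.2%, 8.36% and 22.5%, against 54.5%, 19.7% and 39.3% for Tph2 in the same order of stages. Of the genes at 1 FPKM or more in a library, 90.8 to 96.0% lay below Ddc and 82.0 to 95.5% below Tph2.

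**Figure D2:**
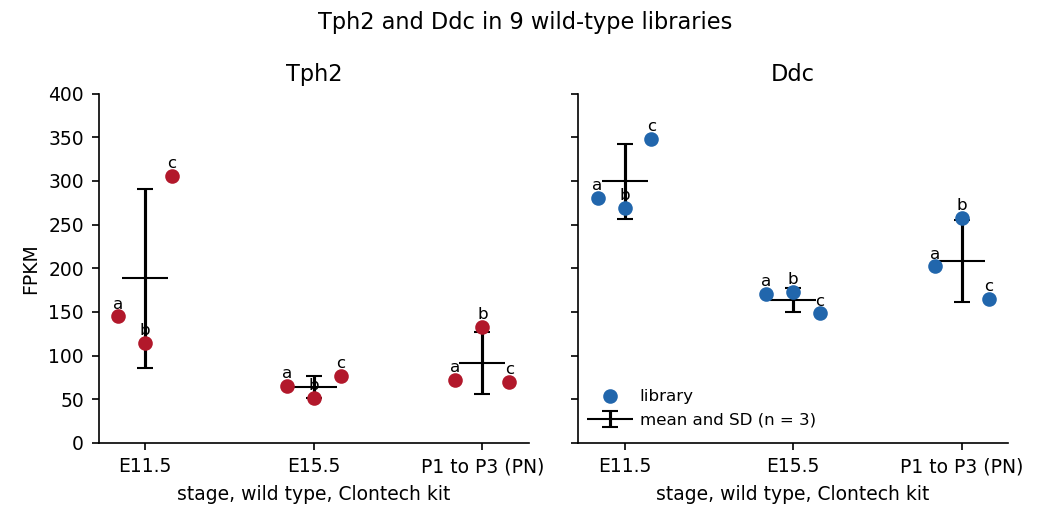
Tph2 (left) and Ddc (right) in FPKM in each of 9 wild-type libraries by stage; points are libraries a to c and bars the mean and SD (n = 3). The E15.5 libraries lie between 51.0 and 76.3 FPKM for Tph2 and between 148 and 173 FPKM for Ddc, below every E11.5 library.

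Between E15.5 and E11.5 both enzymes fell, Tph2 with a log2 difference of -1.43 (SE 0.38, 95% interval -2.24 to -0.61, limma, adjusted p = 0.0141) and Ddc with one of -0.86 (SE 0.24, interval -1.38 to -0.34, limma, adjusted p = 0.0191). These differences are on the log2(FPKM + 1) scale, and a gene was called at an adjusted p below 0.05 and at least 1.5-fold. Of all genes tested, 11.48% were called lower and 17.4% higher in this comparison, the groups of libraries did not overlap for 42.3%, and the median difference was 0.11. Both calls stood near the threshold. Tph2 missed it without E15.5 b (-1.28, limma, adjusted p = 0.0556), and Ddc without E11.5 c (-0.75, limma, adjusted p = 0.0610) or E15.5 c (-0.79, limma, adjusted p = 0.0557). In the authors' deposited table of the same stages Tph2 had a log2 fold change of -1.55 and Ddc one of -0.85 (q = 0.000388 for each). By the authors' q and a 1.5-fold limit 14.7% of the genes tested in that table were lower. Markers of other cells moved in the same comparison. The 8 astrocyte and radial glia markers summed to 984 to 1876 FPKM at E15.5 and 279 to 512 FPKM at E11.5, with Slc1a3, Aldh1l1, Sparcl1 and Fabp7 called higher (log2 2.91 to 4.22), Vim lower (-1.58), and Gfap below 1 FPKM. The 5 oligodendrocyte lineage markers summed to 12.7 to 63.1 FPKM at E15.5 and 0.461 to 3.11 FPKM at E11.5, and 3 measured blood markers to 5.70 to 37.5 FPKM at E15.5 and 0 to 7.29 FPKM at E11.5. Their part in the fall of the enzymes was not tested. In these bulk samples, fewer cells of a type and less RNA per cell cannot be told apart.

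At PN against E15.5 the log2 difference was 0.46 for Tph2 (SE 0.38, interval -0.36 to 1.28, limma, adjusted p = 0.417) and 0.32 for Ddc (SE 0.24, interval -0.20 to 0.85, limma, adjusted p = 0.373). Neither was called, against 10.6% of genes called higher and 9.55% lower, and the libraries of both genes overlapped where those of 42.2% of genes did not. The intervals reach a rise of more than 1.5-fold and also reach below 0. In the authors' deposited table Tph2 was 1.43-fold higher at PN (q = 0.0397), under the 1.5-fold limit, and Ddc 1.27-fold higher (q = 0.155), while 13.9% of the genes tested there passed both limits as higher. PN library b had the highest Tph2 and Ddc of its stage, and also the most microglia RNA (1075 FPKM over 9 markers, against 124 and 130 FPKM in the other PN libraries) and the highest Th (64.7 FPKM). Without that library the log2 difference was 0.16 for Tph2 and 0.16 for Ddc. The 8 astrocyte and radial glia markers summed to 377 to 1066 FPKM at PN and 984 to 1876 FPKM at E15.5. They did not move as one, with Fabp7 and Vim called lower at PN (log2 -1.37 and -1.72) and Aqp4 called higher (1.43). The rest of them were not called. The part of the other cells' RNA in the levels of the enzymes was not tested.

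At PN against E11.5 Tph2 had a log2 difference of -0.97 (SE 0.38, interval -1.78 to -0.15, limma, adjusted p = 0.0750) and Ddc one of -0.54 (SE 0.24, interval -1.06 to -0.01, limma, adjusted p = 0.120), where 10.02% of genes were called lower and 17.4% higher. The Ddc libraries did not overlap between these stages, as for 40.3% of genes, and those of Tph2 did. The Tph2 call depended on single libraries, since without PN b it was -1.27 (limma, adjusted p = 0.0418) and without E11.5 b -1.26 (limma, adjusted p = 0.0389). Whether the later interval differed from the earlier one was tested directly. The difference between the 2 intervals was 1.89 for Tph2 (SE 0.65, limma, adjusted p = 0.0549) and 1.18 for Ddc (SE 0.42, limma, adjusted p = 0.0598), both short of the threshold, which 22.6% of genes passed in either direction. Tph2 passed without E11.5 a (2.01, limma, adjusted p = 0.0473) or E11.5 b (2.18, limma, adjusted p = 0.0333), and Ddc without PN c (1.34, limma, adjusted p = 0.0444).

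The Tph2 to Ddc ratio takes out any factor that scales a whole library. It was 0.516, 0.425 and 0.877 at E11.5, 0.381, 0.295 and 0.515 at E15.5, and 0.355, 0.516 and 0.424 at PN. Tph2 was thus below Ddc in all 9 libraries, and the ratios of the 3 stages overlapped. An exact permutation test over 1680 arrangements of the libraries did not part the stages (F = 1.53, p = 0.304). Arrangements that only swap the names of stages give the same F, so the smallest p it allows lies above 0.000595. Between pairs of stages the log2 ratio differed by -0.57 for E15.5 minus E11.5, by 0.14 for PN minus E15.5 and by -0.43 for PN minus E11.5 (exact permutation tests, two-sided, p = 0.3, 0.8 and 0.3, adjusted over the 3 pairs 0.45, 0.8 and 0.45), where 3 against 3 libraries cannot go below 0.1. Without E15.5 b the difference for PN minus E15.5 was -0.06 (exact permutation test, p = 0.7).

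The knockout tables ask what these genes lose without Pet-1. They give 1 value per group with the authors' p and q, so no spread between libraries can be shown. The deleted gene itself was at 0.422 FPKM in knockout and 31.1 FPKM in wild-type neurons with the Clontech kit, and at 0.308 FPKM in knockout and 34.9 FPKM in wild type with the NuGEN kit, in the authors' deposited tables.

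With the Clontech kit Tph2 was at 9.75 FPKM in knockout and 63.5 FPKM in wild-type neurons, 15.3% of wild type (log2 -2.70, q = 0.00391 in the authors' deposited table). With the NuGEN kit it was at 11.1 FPKM in knockout and 218 FPKM in wild type, 5.08% of wild type (log2 -4.30, q = 0.00206 in the authors' deposited table). Knockout levels thus lay close together with both kits, while the NuGEN wild-type level was 3.44 times the Clontech one. Each kit has its own table and normalisation, and no test was made between kits.

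Ddc kept more of its RNA. With the Clontech kit it was at 44.0 FPKM in knockout and 164 FPKM in wild type, 26.8% (log2 -1.90, q = 0.00391 in the authors' deposited table), and with the NuGEN kit at 38.8 FPKM in knockout and 203 FPKM in wild type, 19.1% (log2 -2.39, q = 0.00206 in the authors' deposited table). The NuGEN to Clontech ratio of the wild-type levels in the authors' deposited tables was 1.24 for Ddc, 2.64 for Slc6a4 and 3.30 for Slc18a2. A call here needed q below 0.05, a difference of 1.5-fold or more and 1 FPKM or more in either group. By that rule 1.85% of genes were lower and 0.969% higher with the Clontech kit, and 4.56% lower and 8.19% higher with NuGEN. Among the 202 Clontech genes called lower in the authors' deposited tables Tph2 ranked 33 and Ddc 65 by log2 fold change, and among the 502 NuGEN genes Tph2 ranked 3 and Ddc 15. The p of 5e-05 that both enzymes carry is the smallest in either authors' deposited table, shared by 145 and 292 genes.

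From the authors' deposited tables, the ratio of Tph2 to Ddc was 0.221 in knockout and 0.386 in wild type with the Clontech kit, a log2 difference of -0.80. It was 0.286 in knockout and 1.07 in wild type with NuGEN, a log2 difference of -1.91. Tph2 was therefore down by more than Ddc with both kits, without a test of that difference. The Clontech wild-type group carries the same sample labels as the E15.5 stage libraries, so the stage and the Clontech knockout comparisons share samples. Summed serotonin neuron markers were at 160 FPKM in knockout and 251 FPKM in wild type with the Clontech kit, and at 346 FPKM in knockout and 595 FPKM in wild type with NuGEN. That sum holds the deleted Fev. Without Fev it was 159 FPKM in knockout and 220 FPKM in wild type with Clontech, and 345 FPKM in knockout and 559.9 FPKM in wild type with NuGEN. Gata3 and Lmx1b were called with neither kit. Gata3 was at 137 FPKM in knockout and 164 FPKM in wild type with Clontech, and at 321 and 406 FPKM with NuGEN. Lmx1b was at 8.19 FPKM in knockout and 4.89 FPKM in wild type with Clontech, and at 2.15 and 2.54 FPKM with NuGEN. The 8 astrocyte and radial glia markers summed to 492 FPKM in knockout and 1422 FPKM in wild type with Clontech, and to 316 FPKM in knockout and 191 FPKM in wild type with NuGEN, most of it Fabp7. Fabp7 alone was at 458 FPKM in knockout and 1289 FPKM in wild type with Clontech, and at 284 FPKM in knockout and 135 FPKM in wild type with NuGEN. Without Fabp7 the sums were 33.6 FPKM in knockout and 133 FPKM in wild type with Clontech, and 31.8 FPKM in knockout and 56.1 FPKM in wild type with NuGEN. Microglia markers summed to 2.14 FPKM in knockout and 14.3 FPKM in wild type with Clontech, and to 0.866 FPKM in knockout and 2.06 FPKM in wild type with NuGEN. These sums are of group values in the authors' deposited tables, and the part of cell composition in the fall was not tested.

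**Figure D3:**
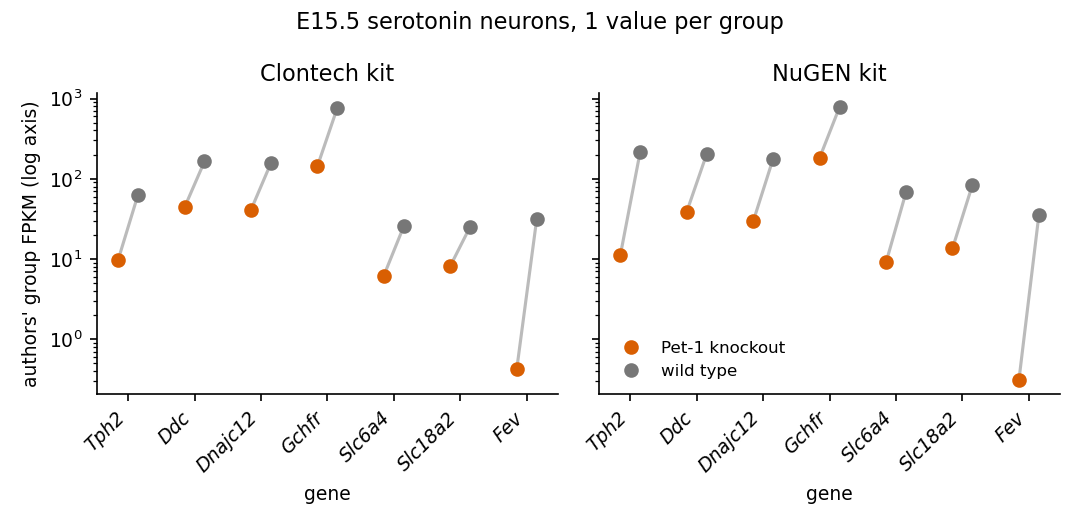
The authors' group FPKM (log axis) in Pet-1 knockout (orange, left of each pair) and wild-type (grey) neurons at E15.5, by kit, with 1 value per group and no error. Tph2 lies at 9.75 and 11.1 FPKM in knockout neurons with the Clontech and NuGEN kits, against 63.5 and 218 FPKM in wild type.

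**Figure D4:**
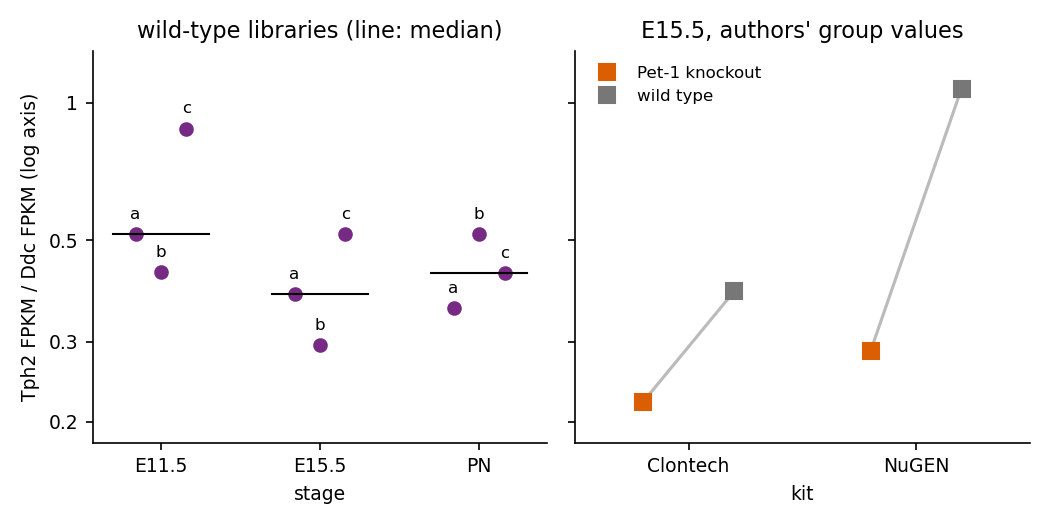
Ratio of Tph2 to Ddc FPKM (log axis), left in each wild-type library by stage with the median as a line, and right in knockout (orange) and wild-type (grey) groups at E15.5 by kit. The libraries of the 3 stages overlap between 0.295 and 0.877, the Clontech groups are at 0.221 (knockout) and 0.386 (wild type), and the NuGEN groups at 0.286 (knockout) and 1.07 (wild type), with that wild type above every stage library.

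The other genes of serotonin synthesis and handling supply the cofactor or move and break down the product. At E15.5 against E11.5, 6 of 16 tested genes fell and 1 rose, where 11.48% of all genes fell and 17.4% rose (median log2 -0.70, against 0.11 over all genes). Pcbd1 and Spr, which recycle and make tetrahydrobiopterin, had log2 differences of -1.99 and -1.66. The serotonin transporter Slc6a4 averaged 25.9 ± 2.24 FPKM at E15.5 and 98.2 ± 54.7 FPKM at E11.5 (SD, n = 3 each, log2 -1.76, limma, adjusted p = 0.00304). The organic cation transporter Slc22a3 had a log2 difference of -3.15, and Slc7a5, a subunit of the carrier that brings in large neutral amino acids, one of 1.53. With both enzymes counted 8 genes fell, and 5 without E15.5 c.

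At PN against E15.5 the list ran the other way, with 6 genes higher and 1 lower, where 10.6% of all genes were higher and 9.55% lower (median 0.94, against 0.01 over all genes). Slc6a4 rose to 137 ± 29.8 FPKM at PN, against 25.9 ± 2.24 FPKM at E15.5 (SD, n = 3 each, log2 2.35, limma, adjusted p = 0.000980), and Pcbd1 and Slc3a2, the partner of Slc7a5, rose by 1.47 and 1.20. The monoamine oxidase Maob had a log2 difference of -2.13. The enzymes overlapped between those stages, whereas each PN library of Slc6a4, at 104 to 160 FPKM, stood above each E15.5 library, at 23.4 to 27.8 FPKM. The count of higher genes was 3 without E15.5 c and 3 without PN a. At PN against E11.5 only Slc7a5 rose (2.49), and Slc22a3 (-2.22) and Maob (-1.78) fell, where 17.4% of all genes rose and 10.02% fell (median -0.15, against 0.08 over all genes). The count of genes that fell there was 1 without E11.5 c, PN a or PN c, and that of genes that rose was 2 without E11.5 c. The vesicular transporter Slc18a2 passed in none of the 3 comparisons, with 34.2 ± 20.1 FPKM at E11.5, 21.3 ± 5.02 FPKM at E15.5 and 22.5 ± 3.11 FPKM at PN (SD, n = 3 each, limma, adjusted p of 0.298 to 0.893).

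In the knockout 5 of 16 tested genes of this list were lower with the Clontech kit and 7 with NuGEN, and 0 were higher, where 1.85% of all genes were lower with Clontech and 4.56% with NuGEN (medians -0.48 and -0.62, against -0.02 and 0.09 over all genes), all in the authors' deposited tables. Gchfr, the feedback regulator of tetrahydrobiopterin synthesis, was at 143 FPKM in knockout and 769 FPKM in wild type with Clontech, and at 182 FPKM in knockout and 781 FPKM in wild type with NuGEN (log2 -2.42 and -2.10 in the authors' deposited tables). In the same authors' deposited tables Slc6a4 had log2 values of -2.04 and -2.90, and Slc18a2 of -1.63 and -2.63. Qdpr, which recycles the cofactor, was called with the Clontech kit (-1.31), and with NuGEN stood at -0.50 (q = 0.146 in the authors' deposited table). Slc22a3 was called with NuGEN (-5.42), and with Clontech stood at -4.84 (q = 0.207 in the authors' deposited table). Tph2 had a larger log2 fall than any gene of the list called with the Clontech kit, and with NuGEN only Slc22a3 had a larger one.

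**Figure D5:**
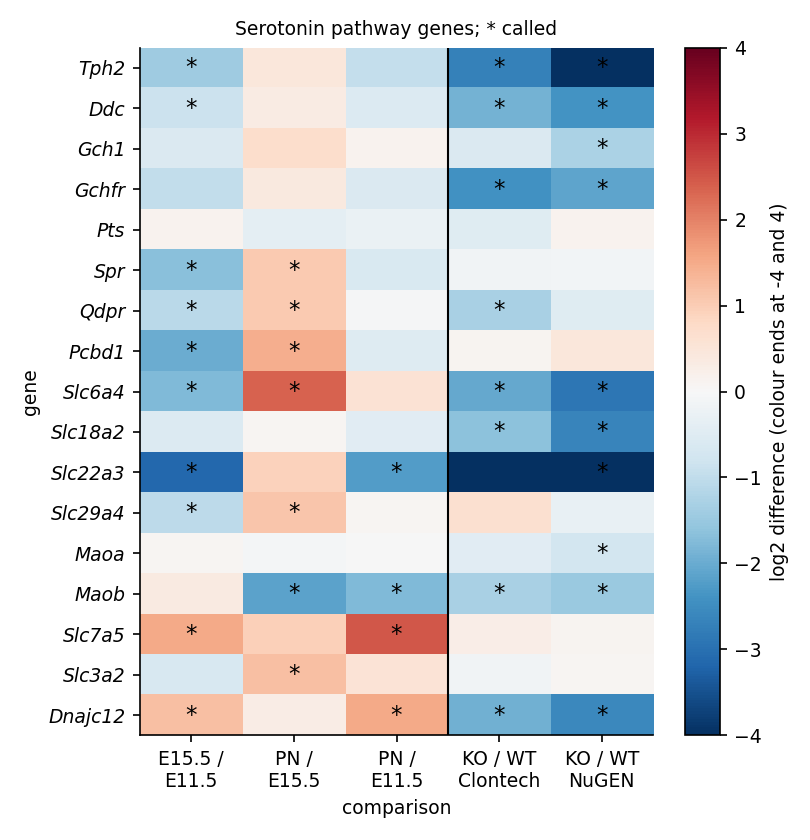
Log2 differences of Tph2, Ddc, 14 other genes of serotonin synthesis and handling and the co-chaperone Dnajc12, with stage comparisons left of the line (limma) and the authors' knockout over wild type right of it; stars mark calls and colours end at -4 and 4. Both enzymes are starred in E15.5 over E11.5 and in both knockout columns, and in neither PN column.

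Both enzymes depend on partners. Dnajc12, a co-chaperone of the aromatic amino acid hydroxylases, was higher at both later stages than at E11.5, where Tph2 means were lower, at 63.0 ± 11.6 FPKM at E11.5, 148 ± 32.1 FPKM at E15.5 and 188 ± 70.1 FPKM at PN (SD, n = 3 each). It rose at E15.5 against E11.5 (log2 1.21, SE 0.30, limma, adjusted p = 0.0109) and at PN against E11.5 (1.52, limma, adjusted p = 0.00263), and PN minus E15.5 was 0.30 (limma, adjusted p = 0.512). In the authors' deposited knockout tables it moved with the enzymes, at 41.0 FPKM in knockout and 157 FPKM in wild type with Clontech (log2 -1.94) and at 29.4 FPKM in knockout and 177 FPKM in wild type with NuGEN (log2 -2.59).

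In the whole list of partners and cofactor supply (14-3-3 proteins, which bind the phosphorylated hydroxylase, kinases that phosphorylate it, and enzymes of pyridoxal phosphate) 5 of 16 tested genes rose and 2 fell at E15.5 against E11.5, and 1 fell when any single library was left out. Of all genes 17.4% rose and 11.48% fell there, so the share of partners that fell lies near that of all genes. The kinase subunit Camk2b had a log2 difference of 3.11, the 14-3-3 genes Ywhae and Ywhaz 1.55 and 1.33, and Camk2a -1.42. At PN against E15.5, 6 rose and 1 fell, where 10.6% of all genes rose and 9.55% fell, among them Camk2d (2.50), the pyridoxal phosphate phosphatase Pdxp (1.55), Ywhag (1.41) and the pyridoxal kinase Pdxk (1.18). That count of 6 was 2 or 3 without any single E15.5 or PN library. At PN against E11.5, 7 rose and 0 fell, where 17.4% of all genes rose and 10.02% fell, with Camk2b (4.12), Camk2d (3.37), Pdxp (2.53) and Pdxk (2.46) in the lead. The medians of the 3 comparisons were 0.81, 0.70 and 0.73, against 0.11, 0.01 and 0.08 over all genes. In the authors' deposited knockout tables the calls were Dnajc12, lower with both kits, and Camk2b, higher with Clontech (0.80). They were among 15 genes tested with Clontech and 16 with NuGEN (medians 0.07 and 0.00, against -0.02 and 0.09 over all genes). Of all genes 1.85% were lower and 0.969% higher with Clontech, and 4.56% lower and 8.19% higher with NuGEN.

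Of 9 related hydroxylases and amino acid decarboxylases 4 were tested. Th, the hydroxylase of catecholamine synthesis that works upstream of Ddc in other neurons, was at 0.0623, 0.0198 and 0 FPKM at E11.5, at 7.90, 7.97 and 3.30 FPKM at E15.5, and at 12.1, 64.7 and 3.42 FPKM at PN. It was called higher at E15.5 than at E11.5 (2.77, limma, adjusted p = 0.0148) and at PN than at E11.5 (3.93, limma, adjusted p = 0.00176), but the first call was lost without E15.5 a (2.60, limma, adjusted p = 0.0552) or E15.5 b (2.59, limma, adjusted p = 0.0520). The glutamate decarboxylase Gad1 rose too (1.33 at E15.5 against E11.5, 1.44 at PN against E15.5 and 2.78 at PN against E11.5). Its call at E15.5 against E11.5 was lost without E15.5 b (1.26, limma, adjusted p = 0.0524) or E15.5 c (1.13, limma, adjusted p = 0.0656), and that at PN against E15.5 without E15.5 a (1.17, limma, adjusted p = 0.0635). In the authors' deposited knockout tables Th was not called with Clontech (2.15 FPKM in knockout and 5.66 FPKM in wild type, q = 0.136), and with NuGEN it was listed at 0 FPKM in knockout and at 0.0622 FPKM in wild type, untested. The level of Th at E15.5 thus differed between the kits in wild type, and the stage values above are from the Clontech kit. In the same authors' deposited NuGEN table Gad2 was higher in the knockout (0.97).

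Transcription factors of serotonin neurons fell with the enzymes at E15.5 against E11.5 (8 of 13 lower against 11.48% of all genes, 0 higher, median -1.89 against 0.11 over all genes), with Fev at -2.99, Hmx2 at -2.64, Insm1 at -2.36 and Pou3f2 at -2.15. Fev was at 266 ± 112 FPKM at E11.5, 35.2 ± 20.5 FPKM at E15.5 and 72.3 ± 34.0 FPKM at PN (SD, n = 3 each). At PN against E15.5, 3 fell, against 9.55% of all genes, and 0 rose (median -0.48, against 0.01 over all genes), namely Insm1 (-2.06), Gata2 (-1.27) and Gata3 (-1.01), and 1 fell without E15.5 a or PN b. At PN against E11.5, 11 fell, against 10.02% of all genes, and 0 rose (median -1.75, against 0.08 over all genes), led by Insm1 (-4.43), Gata2 (-3.23), Hmx2 (-3.03) and Lmx1b (-3.004), and 7 fell without PN a. In the knockout the calls other than Fev were En1, lower in the Clontech table (-0.92), and Nkx2-2, higher in the NuGEN table (1.11). Of all genes 1.85% were lower and 0.969% higher with Clontech, and 4.56% lower and 8.19% higher with NuGEN. The medians were -0.07 and 0.00 over 12 and 13 genes in the authors' deposited tables, against -0.02 and 0.09 over all genes.

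The nearest protein-coding genes on either side, 2 a side, were measured to show whether the surroundings moved with the enzymes. Around Tph2 they were Trhde and Atxn7l3b, 276 and 2150 kb beyond the 3′ end, and Tbc1d15 and Rab21, 12.8 and 105 kb before the start. Trhde was not tested, and 0 of the other 3 were called in the stage comparisons. Of all genes 17.4% were called higher and 11.48% lower at E15.5 against E11.5. The shares were 10.6% and 9.55% at PN against E15.5, and 17.4% and 10.02% at PN against E11.5. So few genes cannot be told from those shares. In the authors' deposited NuGEN table Tbc1d15 was lower in the knockout (-0.71). With Clontech it was not called and stood at -0.23 (q = 0.683 in the authors' deposited table). Around Ddc, 2 of 4 were tested over the stages. Grb10, an adaptor of growth factor receptors that lies 32.4 kb before the Ddc start, was at 124, 86.2 and 111 FPKM at E11.5, at 6.02, 8.92 and 5.12 FPKM at E15.5, and at 11.6, 10.6 and 8.39 FPKM at PN.

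Grb10 libraries at both later stages lay far below those of E11.5 (E15.5 minus E11.5 log2 -3.83, SE 0.30, limma, adjusted p = 7.38e-06). The log2 difference of PN minus E11.5 was -3.27 (limma, adjusted p = 1.23e-05). It was lower in the knockout too, at 2.38 FPKM in knockout and 7.14 FPKM in wild type with Clontech (log2 -1.59) and at 5.26 FPKM in knockout and 19.2 FPKM in wild type with NuGEN (log2 -1.87), in the authors' deposited tables. Of the mycPet-1 peaks, 1 with a score of 118 lay inside the Grb10 span, 127 kb before the Ddc start. Cobl, an actin nucleator 339 kb away, was higher at PN than at E15.5 (1.51, limma, adjusted p = 0.0222) and in the Clontech knockout (2.06 in the authors' deposited table). With NuGEN Cobl was not called and stood at 0.35 (q = 0.398 in the authors' deposited table).

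Likeness to each enzyme was measured over the 9 libraries as the root mean square difference of log2(FPKM + 1) values, each gene centred on its own mean, against 11740 other genes. For Tph2 the nearest were Dpp8 (0.248), Gm13253 (0.258), Ostf1 (0.261), Hnrpll (0.314) and Prmt6 (0.329), where the median gene was at 0.971. Ddc ranked 36 on that scale, at 0.417. For Ddc the nearest were Myo10 (0.120), Rbm15 (0.134), Mrps35 (0.141), Smcr8 (0.150) and Fem1a (0.163), with the median gene at 0.743 and Tph2 at rank 967. These are descriptions with no test, and apart from Mrps35 and Gm13253 the nearest genes were low, averaging 0.429 to 12.03 FPKM per stage, where the scale understates changes.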

How the data were processed

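RNA was measured in 18 libraries of sorted neurons, and chromatin in 1 precipitate and 1 input, 20 samples in 8 groups by their titles. Per the file headers the authors ran Cuffdiff-style comparisons and deposited FPKM, by library for the stages and by group for the knockout. The log2 fold changes, p-values and q-values used are those the authors deposited, per the file headers. Peaks are on mm10, per the file header, which names MACS, and each has the authors' deposited score. The submitters' processing notes name TopHat2, Cufflinks, BWA and MACS 1.4.2 with no role. No source used here says whether FPKM were rescaled across libraries.

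Stage columns name a stage and an index (0 to 2) that is not tied to the replicate numbers of the labels, so libraries are lettered a to c by that index. A further 3 columns fit no sample and were set aside. No kit is named for the E15.5 columns. The protocol gives Clontech for the stage series. The ratio of the Clontech wild-type values to the means of the E15.5 columns had a median of 0.989 (0.841 to 1.14 for 5% to 95% of 6386 genes at 5 FPKM or more). The sum of FPKM in a stage library was 630091 to 919994, with 9614 to 11280 genes at 1 FPKM or more. The 14 genes with failed estimates were left out.

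The stage test was limma (3.58.1, run in R 4.3.3) on the log2(FPKM + 1) values, with a mean-variance trend in 1 fit (6 residual degrees of freedom), and Benjamini-Hochberg adjustment over 11741 genes. This step was tested on simulated data. The ratio of Tph2 to Ddc was tested by exact permutation on log2(FPKM + 1) differences, while printed ratios are of FPKM. Knockout calls used the authors' q with fold and level limits. Gene spans and promoters are RefSeq's for GRCm38.p6. Protein sequences and a genome were not used here.

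The members and the lists were chosen with earlier results of these data known. Named genes are those called with the largest absolute log2 change, up to 4 per list and comparison, plus Fev, Slc6a4 and Slc18a2, the 2 protein-coding neighbours a side and the 5 genes most like each enzyme. Values of named genes in comparisons where that rule did not pick them (Slc7a5, Qdpr, Slc22a3, Th, Dnajc12, Tbc1d15, Cobl) were added after they were seen. Alternatives were the pseudocount, the filter on low values, upper-quartile scaling, median centring, no trend, the column index as a block, fewer libraries, fold and score limits and peak distance.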

Additional observations from a re-analysis of the deposited data

How the results depend on the processing

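Stage columns share an index, and the deviations of libraries with the same index correlated across genes at 0.0794 to 0.403, above 0.1 in 7 of 9 pairs, with PN a closer to E15.5 b (0.135) than to E15.5 a (0.113). Pairs with different indices ranged from -0.256 (PN c with E15.5 b) to 0.135. No source used here says what the index stands for, and whether libraries with the same index share a factor was not tested. With the index as a replicate block (4 residual degrees of freedom) the difference between intervals passed at 1.89 for Tph2 (limma, adjusted p = 0.0491) and 1.18 for Ddc (limma, adjusted p = 0.0431), no other call of either enzyme changed, and 4057, 3065 and 3794 genes were called for E15.5 minus E11.5, PN minus E15.5 and PN minus E11.5. Partners that rose at PN minus E11.5 then numbered 11, against 7. The knockout tables give 1 value per group and allow no block. Leaving out each of the 9 libraries in turn, E15.5 minus E11.5 ranged from -1.72 to -1.01 for Tph2 and from -0.93 to -0.75 for Ddc, PN minus E15.5 from 0.16 to 0.62 and from 0.16 to 0.48, PN minus E11.5 from -1.27 to -0.56 and from -0.70 to -0.38, and the difference between intervals from 1.47 to 2.18 and from 1.02 to 1.34. Genes called ranged from 2383 to 3315 for E15.5 minus E11.5 (3394 with all libraries), from 2437 to 3134 for PN minus E11.5 (3215), and from 1325 to 2960 for PN minus E15.5 (2370), with 1325 without PN a, 1410 without E15.5 a, 1517 without PN b and 1551 without E15.5 c. The ratio of Tph2 to Ddc had F from 0.445 to 2.69 over the stages, and log2 differences from -0.79 to -0.27 (E15.5 minus E11.5), from -0.056 to 0.34 (PN minus E15.5, negative without E15.5 b) and from -0.65 to -0.13 (PN minus E11.5). With no filter on low values, where more genes enter the adjustment, Tph2 at E15.5 minus E11.5 stayed at -1.43 but missed the threshold (limma, adjusted p = 0.0505). Under upper-quartile scaling PN minus E11.5 passed for Tph2 (-1.08, limma, adjusted p = 0.0368) and Ddc (-0.64, limma, adjusted p = 0.0424), as did the difference between intervals (2.15 and 1.44, limma, adjusted p = 0.0247 and 0.0175), and median centring gave -1.06 for Tph2 at PN minus E11.5 (limma, adjusted p = 0.0481); the cause was not tested. Upper-quartile scaling moved the median of all genes at E15.5 minus E11.5 to -0.02, against 0.11, and the calls to 1659 higher and 1688 lower, against 2046 and 1348. At PN minus E15.5 the calls were 1359 higher and 976 lower under that scaling and 1100 higher and 1336 lower under median centring, against 1249 and 1121. Knockout log2 values under upper-quartile scaling were -2.60 and -1.80 for Tph2 and Ddc with Clontech and -4.35 and -2.44 with NuGEN, and on log2(FPKM + 1) -2.59, -1.88, -4.18 and -2.36. A 2-fold limit left 471 of 1404 NuGEN calls, and at a score of 100 or more 0 peaks were left at Tph2 or Ddc, against 1. Of 1394 alternative values of the other genes and lists, 1261 were counted as unchanged, 92 lost the threshold, 41 counts moved and 0 reversed. The genes in that tally had been called to begin with, so it could not show a gene gaining a call. Depth is unknown, so no counting error limits these values in a stated way.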
